A study of Mus musculus with 8 samples.

Results

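The 10 genes described here encode immediate early factors: Fos, Fosb, Jun, Junb, Egr1, Egr2, Ier2, Ier3, Myc and Klf6. They were chosen by name from the 55492 genes of the deposited tables, and each name stood on 1 row. The 8 RNA libraries come from YUMM5.2, a melanoma line of the mouse whose strain the labels give as C57B/6J, after 20 h of culture with 4-OI (4 libraries), a form of itaconate that enters cells per the series text, or with its DMSO control (4 libraries). In this field 4-OI stands for 4-octyl itaconate. All libraries come from this single line, and the sources used here do not state a dose. Total counts ranged from 22962963 to 31361677 per library. All 10 members passed the filter on low counts, together with 13531 genes in all.

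Immediate early genes are transcribed within minutes of a growth factor or stress signal, without new protein synthesis, and most of their transcripts decay quickly. FOS and JUN proteins pair to form the transcription factor AP-1, EGR proteins are zinc finger factors, and MYC drives growth and ribosome production. In melanoma cells with an activated RAF and MAP kinase pathway several of these genes are kept on. The comparison asks how their steady levels differed after 20 h, long after the rapid pulse that gives the class its name, and no earlier time was measured.

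Of the 10 members, Jun, Junb and Ier2 were lower with 4-OI, Ier3 was higher, and Fos, Fosb, Egr1, Egr2, Myc and Klf6 did not pass the test. The changes that passed were small, from a fall of 16.4% for Junb to a rise of 13.6% for Ier3. The test was edgeR's quasi-likelihood test with Benjamini-Hochberg adjustment over all genes tested and a threshold of 0.05. Of the 13531 genes tested, 38.8% were called in either direction, 19.3% higher and 19.6% lower, so 4 of 10 called members is a share near the background. The median log2 fold change of the 10 members was -0.08, and over all genes tested it was 0.00. The median absolute log2 fold change was 0.12 both for the members and for all genes tested. The labels mention 4 experiments per condition but not whether cultures were separate, so p-values reflect only how these samples spread, and that spread may be technical.

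The stretches upstream of Jun and Junb, which fell, of Ier3, which rose, and of Fos, the prototype of the class, which had 20 to 45 counts per library, are shown to set the family's promoters side by side. Each is the 250 bases that precede the RefSeq start on GRCm38.p6, and 7 of the 10 members matched an entry of that table. They lie at chr4:95052223-95052472 (minus strand, Jun), chr8:84978749-84978998 (minus strand, Junb), chr17:35821463-35821712 (plus strand, Ier3) and chr12:85473640-85473889 (plus strand, Fos). Capitals mark matches, on either strand, to TGAGTCA (an AP-1 element), TGACNTCA (which holds the cyclic AMP response element and the variant of the Jun promoter), TGACG (the core of that element, which overlaps TGACNTCA where N is G), TATAAA (the core promoter element), CCAAT (the element bound by NF-Y), CACGTG (the E-box bound by MYC with MAX) and the CArG box bound by SRF.
Jun: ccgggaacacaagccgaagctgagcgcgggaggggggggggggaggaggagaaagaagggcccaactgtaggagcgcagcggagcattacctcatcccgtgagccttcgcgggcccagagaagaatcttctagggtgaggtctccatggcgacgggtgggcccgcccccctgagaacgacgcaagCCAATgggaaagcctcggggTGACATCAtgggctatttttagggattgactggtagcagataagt
Junb: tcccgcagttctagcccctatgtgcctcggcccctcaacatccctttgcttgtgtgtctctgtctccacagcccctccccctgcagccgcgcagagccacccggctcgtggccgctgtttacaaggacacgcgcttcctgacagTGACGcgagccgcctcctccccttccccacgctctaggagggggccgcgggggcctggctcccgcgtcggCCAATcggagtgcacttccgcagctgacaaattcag
Ier3: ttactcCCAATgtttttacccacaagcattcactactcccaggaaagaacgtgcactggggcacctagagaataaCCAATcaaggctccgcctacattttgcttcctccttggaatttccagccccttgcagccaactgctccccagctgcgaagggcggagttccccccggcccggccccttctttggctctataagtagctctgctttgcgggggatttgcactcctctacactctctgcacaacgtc
Fos: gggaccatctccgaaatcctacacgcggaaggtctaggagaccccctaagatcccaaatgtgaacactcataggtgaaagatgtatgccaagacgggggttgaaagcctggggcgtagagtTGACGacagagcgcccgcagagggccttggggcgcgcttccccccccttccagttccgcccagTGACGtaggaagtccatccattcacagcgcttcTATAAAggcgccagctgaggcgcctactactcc

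Jun holds TGACATCA from 45 to 38 bases before its start, a match to TGACNTCA, which with any base at N is found in 7.49% of 32841 promoter windows of this length. Klf6 holds the same letters from 119 to 112 bases before its start. CCAAT stands in the windows of Jun, Junb, Ier3, Klf6 and Egr2, which has several starts, and in 33.9% of all windows. TGACG stands in those of Fos, Junb, Fosb and Egr2, and in 17.8% of all. Fos alone of these 4 has TATAAA, 33 to 28 bases before its start, as do 12.4% of all windows. TGAGTCA was found in none of the 7 members' windows and in 4.46% of all. A CArG box was found at Egr2, and in 1.47% of all windows; GCGNGGGCG, an EGR element, was found at Fosb and in 4.70% of all. TGACNNNGC, the core of the antioxidant response element, was found at Klf6 and Egr2, and in 10.2% of all windows. Egr1, Ier2 and Myc had no window. Egr2 was searched at several starts, while the shares are per window, and elements further upstream were not searched. These are matches of letters in a short window and describe no binding.

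Jun encodes the main partner of FOS in AP-1. Its gene (ENSMUSG00000052684) lies on GRCm38 chromosome 4 from 95049034 to 95052222, minus strand, and has 1 annotated transcript. Scaled to library size with TMM factors (CPM), Jun stood at 214.6, 217.2, 212.9 and 214.03 with DMSO, in the order of replicates 1 to 4, and at 181.8, 184.4, 184.7 and 184.06 with 4-OI. The 4-OI values all fell short of the DMSO values, and the gap between groups was many times the spread within them. The means were 214.7 ± 1.85 CPM with DMSO and 183.8 ± 1.33 CPM with 4-OI (SD, n = 4). In edgeR the log2 fold change came to -0.22 ± 0.02 (SE; adjusted p = 8.50e-08).

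Junb encodes a JUN relative that pairs with the same FOS proteins and activates many sites more weakly. Its gene (ENSMUSG00000052837) lies on chromosome 8 from 84974484 to 84978718, minus strand. Its CPM were 111.4, 109.7, 118.9 and 118.6 with DMSO and 92.7, 96.3, 97.8 and 96.4 with 4-OI. The groups did not overlap, and the DMSO libraries spread over a wider range than the 4-OI libraries. Its log2 fold change in edgeR was -0.26 ± 0.03 (SE; adjusted p = 1.15e-06).

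The falls of Jun and Junb were close in their estimates, -0.22 and -0.26 in log2. The ratio test cannot show that they were equal, because its p cannot go below 0.0286 before adjustment. The log2 ratio of Jun to Junb CPM was 0.90 ± 0.07 with DMSO and 0.94 ± 0.02 with 4-OI (SD, n = 4), a difference of 0.03 (two-sided exact permutation p = 0.4, and 0.6 after Benjamini-Hochberg adjustment over 5 ratios). Both genes overlap another gene on the other strand, and the sources used here do not state the strand setting of the counting. Junos, antisense to Jun over 689 bases, had 46 to 81 counts per library against 4708 to 6683 for Jun, with a change of -0.24 in log2 (edgeR, adjusted p = 0.225). Prdx2, a peroxiredoxin that overlaps Junb by 351 bases, had 4357 to 6317 counts and rose by 0.08 (log2; edgeR, adjusted p = 0.0102), the direction opposite to Junb. The other 8 members overlap no gene of GENCODE release M21.

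**Figure D1:**
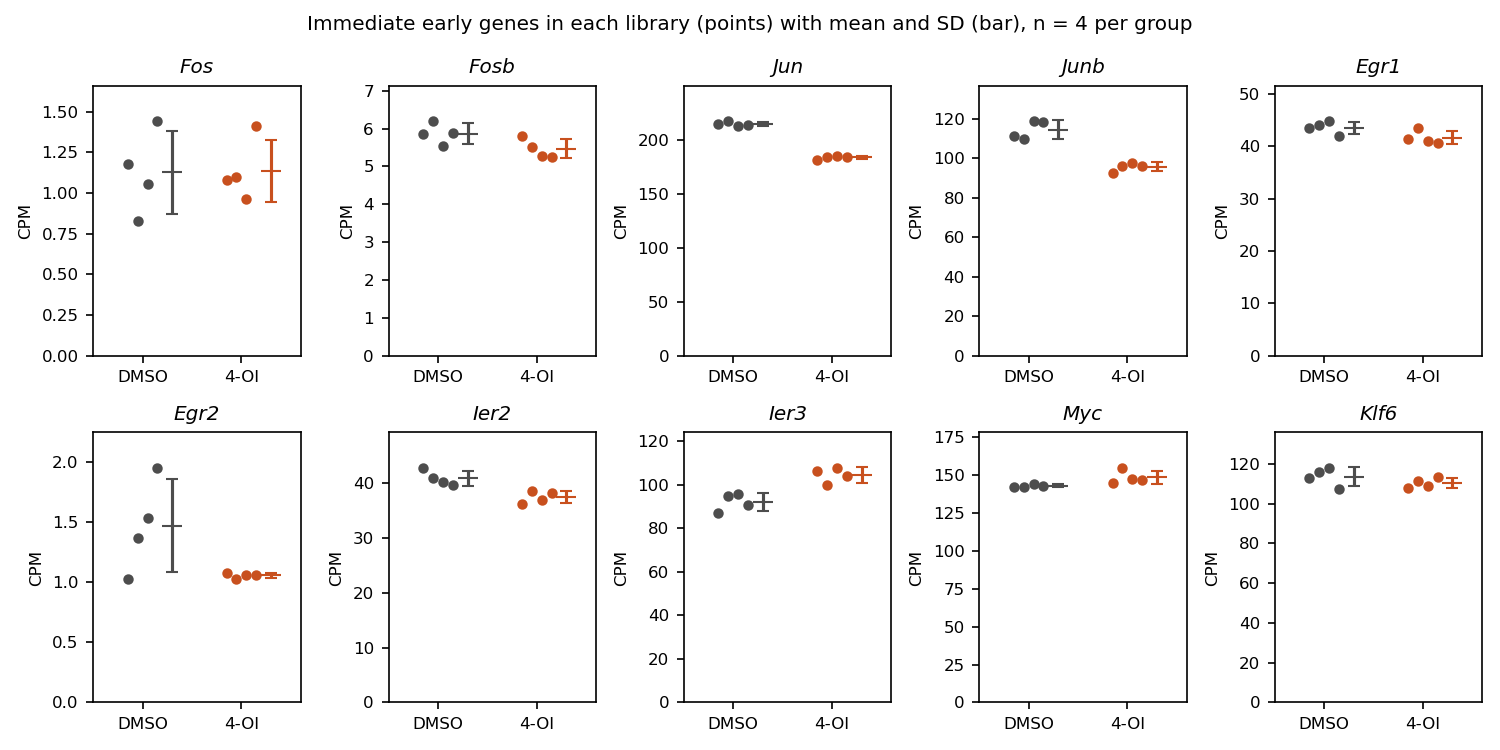
CPM of each of the 10 members by group, with 1 point per library in the order of the replicate numbers, and the mean with its SD (n = 4) beside the points. Each vertical axis starts at 0; the Jun panel shows 2 tight groups near 214.7 and 183.8 CPM, while the Fos libraries of both groups cover the same range.

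Fos, the prototype of the class (ENSMUSG00000021250, chromosome 12 from 85473890 to 85477273), was low at this time. With DMSO it had 31, 20, 24 and 45 counts, and with 4-OI 28, 31, 29 and 44. In CPM these were 1.18, 0.831, 1.05 and 1.44 with DMSO and 1.08, 1.10, 0.965 and 1.41 with 4-OI. The groups overlapped throughout. By edgeR, the log2 fold change equalled 0.00 ± 0.20 (SE; adjusted p = 0.998), and the 95% interval of the difference ran from -25.7% to 34.4%. Changes of either direction within that interval are compatible with these low counts, and the size of change that could be detected was not computed. The sign of the estimate differs between scalings.

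Fosb, which encodes a FOS relative with a stable truncated isoform (chromosome 7 from 19302696 to 19310051), was also low. Its CPM were 5.86, 6.19, 5.53 and 5.89 with DMSO and 5.79, 5.53, 5.29 and 5.25 with 4-OI. The ranges overlapped, with the 2 lowest values in 4-OI libraries. The log2 fold change was -0.11 (edgeR adjusted p = 0.309), with a 95% interval from -17.2% to 4.13%. Gene-level counts do not separate the full-length and truncated forms. The log2 ratio of Fos to Fosb differed by 0.11 between groups (two-sided exact permutation p = 0.514, adjusted over 5 ratios 0.6).

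Other genes carried the larger part of the FOS family transcripts. In TPM, a deposited share of transcripts corrected for length, Fosl1, which encodes FRA1, stood at 131.2, 131.6, 137.3 and 143.7 with DMSO and at 185.95, 178.2, 165.4 and 176.8 with 4-OI. Its groups did not overlap, and its log2 fold change in the count test was 0.43 (edgeR adjusted p = 2.75e-10). Fosl2, which encodes FRA2, rose by 0.15 (log2; edgeR, adjusted p = 0.000141). Jund, the JUN gene that is expressed at a steady level in most cells, had a change of 0.01 in log2 (edgeR, adjusted p = 0.734).

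Fos and Fosb together made up 2.10% ± 0.20 of the summed TPM of the 4 FOS family genes with DMSO, and 1.54% ± 0.07 with 4-OI (SD, n = 4). The sum of these 4 genes rose from 188 to 233 TPM, which lowers the share by itself. Neither Fos nor Fosb was called in the count test, so the share does not show that they fell. Fosl1 made up 72.4% ± 1.08 and 75.8% ± 1.27. Jun and Junb together fell from 42.1% ± 0.41 to 34.7% ± 0.88 of the summed TPM of all 7 FOS and JUN family genes. That sum was 487 ± 7.31 TPM with DMSO and 503 ± 9.28 TPM with 4-OI, and its ranges overlapped, from 480 to 495 and from 494 to 511. The JUN family sum was lower in every 4-OI library and the FOS family sum higher. These shares describe transcripts and carry no test. They also carry the length behind each TPM, which differed between libraries for Fosl1. Fosl1 had 142.3 CPM and 131.2 TPM in DMSO replicate 1, and 134.4 CPM and 143.7 TPM in DMSO replicate 4.

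**Figure D2:**
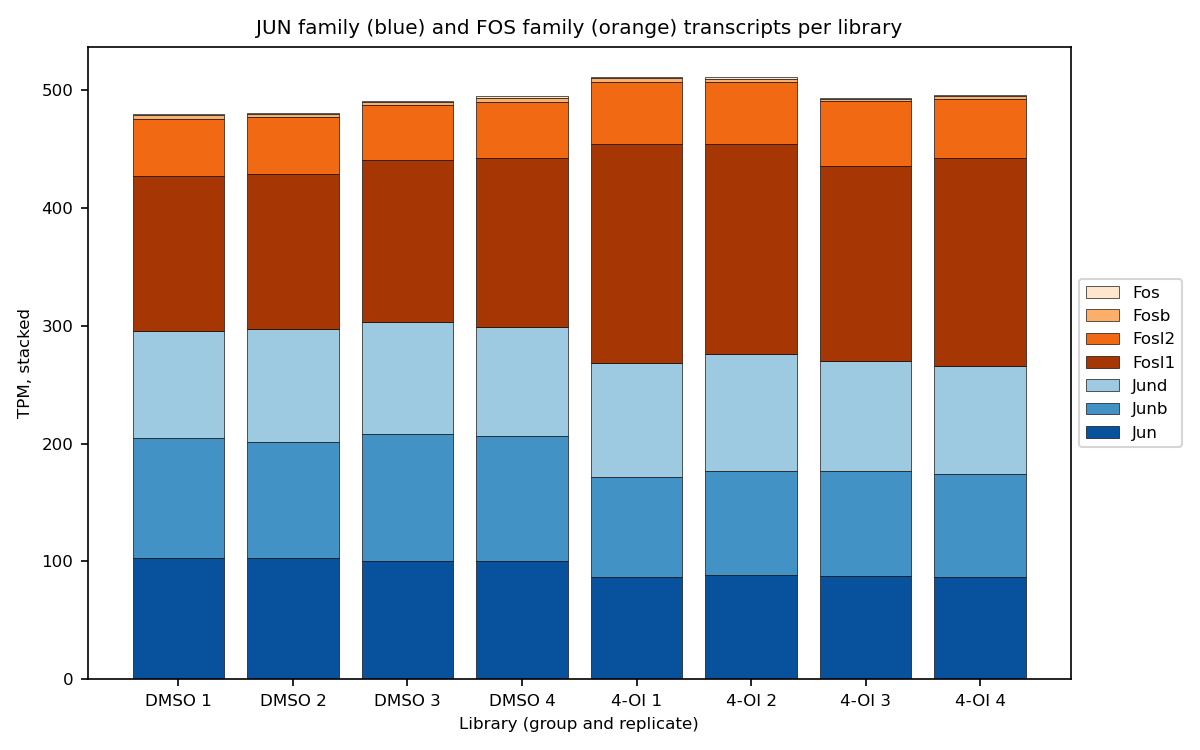
Stacked TPM of the 3 JUN family genes (blue) and the 4 FOS family genes (orange) in each of the 8 libraries; bar height is the sum. The blue part averages 299 TPM with DMSO and 270.1 TPM with 4-OI, the orange part 188 and 233 TPM, and Fos and Fosb are thin bands at the top.

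Of 9 further AP-1 genes listed, 6 could be tested: Fosl1 and Fosl2 were higher, none was lower (without 4-OI replicate 2, 1 was lower), and Jund, Atf3, Jdp2 and Maff were not called. That is 33.3% called, no more than the 38.8% of all genes tested. Atf3, a stress-induced repressor of AP-1 sites, had 6.79 ± 0.196 CPM with DMSO and 5.89 ± 0.768 CPM with 4-OI (SD, n = 4), a change of -0.20 in log2 (edgeR, adjusted p = 0.0812). Among 20 listed AP-1 target genes, all tested, 6 were higher and 10 lower, or 80.0% called. The number lower was 8 on the TPM scale, and 9 with DESeq2 and in several other alternatives. The median log2 fold change of the 20 genes was -0.12. For comparison, 38.8% of all genes tested and 45.8% of those at a mean of 5 CPM or more were called. The lists here and below were chosen with earlier results of these data known. Their shares called therefore cannot show that a class changed more often than other genes. Areg (0.86), Plaur (0.56) and Ereg (0.54) had the largest rises, and Mmp9 (-0.96), Plau (-0.74) and Mmp10 (-0.39) the largest falls. Areg and Ereg encode ligands of the EGF receptor, Plau encodes urokinase, and Plaur encodes its receptor.

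Egr1 encodes a zinc finger factor whose transcript follows MAP kinase activity closely. Its gene (ENSMUSG00000038418) lies on chromosome 18 from 34859823 to 34864984. Its CPM were 43.4, 43.9, 44.8 and 41.99 with DMSO and 41.4, 43.5, 41.04 and 40.6 with 4-OI. The ranges overlapped by way of 4-OI replicate 2, and the other 3 4-OI libraries lay below all DMSO libraries. In edgeR the log2 fold change came to -0.06 ± 0.04 (SE; adjusted p = 0.194), and the 95% interval ran from -9.19% to 1.01%.

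Egr2, best known from Schwann cells and lymphocytes (chromosome 10 from 67535475 to 67542188), had the largest point estimate among the members and 1 of the least precise. It had 27, 33, 35 and 61 counts with DMSO and 28, 29, 32 and 33 with 4-OI. The CPM were 1.03, 1.37, 1.54 and 1.95 with DMSO and 1.08, 1.03, 1.06 and 1.06 with 4-OI. The DMSO libraries spread almost to a doubling, and DMSO replicate 1 lay within the narrow range of the 4-OI libraries. Its log2 fold change in edgeR was -0.49 ± 0.20 (SE; adjusted p = 0.0641). Without DMSO replicate 1 it was -0.63 (edgeR adjusted p = 0.0186), and over 17 alternatives the adjusted p ran from 0.0186 to 0.299. Without DMSO replicate 4, which held the 61 counts, the log2 fold change was -0.30. The log2 ratio of Egr1 to Egr2 was 4.50 ± 0.30 with DMSO and 4.76 ± 0.06 with 4-OI (SD, n = 4; two-sided exact permutation p = 0.114, adjusted over 5 ratios 0.286).

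Among genes listed beside the EGR members, Nr4a1, Nr4a2 and Nr4a3 encode orphan nuclear receptors that are induced as immediate early genes. Nr4a1 had 51.6, 50.6, 49.4 and 47.3 CPM with DMSO and 75.4, 78.9, 78.3 and 73.2 CPM with 4-OI. In CPM all 3 genes were higher in every 4-OI library than in any DMSO library, with log2 fold changes of 0.62, 0.55 and 0.79 (edgeR adjusted p = 2.40e-11, 9.10e-09 and 2.72e-05). Nab2 and Nab1, which encode corepressors of EGR proteins, fell by 0.25 and 0.11 on the log2 scale (adjusted p = 9.46e-07 and 0.00463 in edgeR). Egr3 was not called (-0.01, edgeR adjusted p = 0.943), and Egr4 was at or near 0. In this list of 7, 6 were tested, and 83.3% were called against 38.8% of all genes tested and 45.8% of those at a mean of 5 CPM or more. It held 3 higher and 2 lower (1 with log2(TPM + 0.1), where Nab1 was not called). Of 12 listed EGR targets, 9 were tested and 77.8% called, with 4 higher, among them Sphk1 (0.34), and 3 lower, among them Nab2. The number higher was 3 with DESeq2, on the TPM scale and in several other alternatives, and the number lower was 1 on the TPM scale. This list shares Nab2, Egr3 and Trib1 with the other lists. Both lists were chosen with earlier results known, so their shares called do not set these classes apart from other genes.

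**Figure D3:**
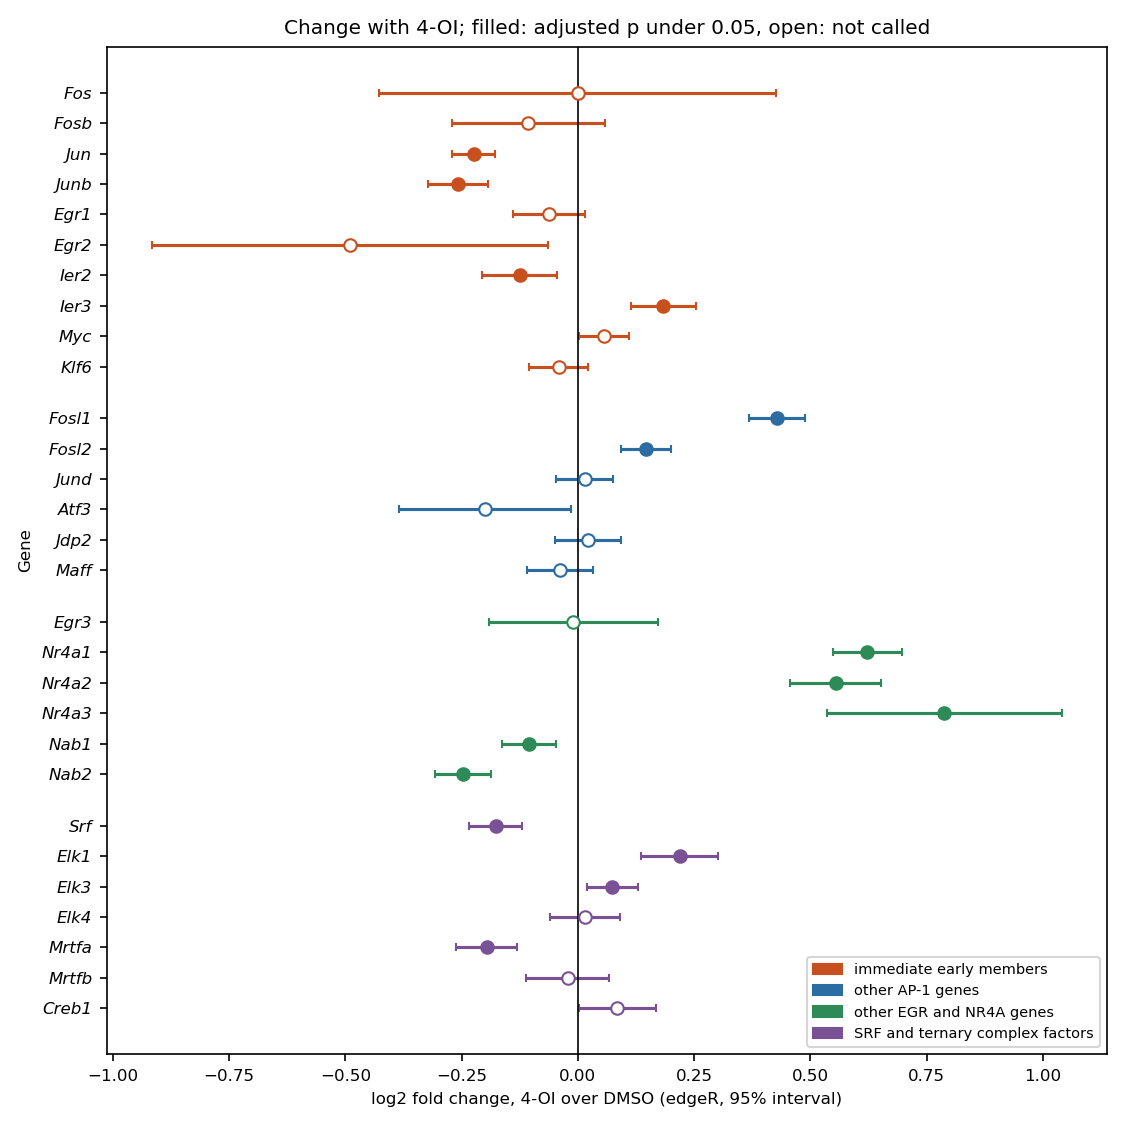
Log2 fold change of 4-OI over DMSO with its 95% interval for the 10 members and the tested genes of 3 related lists; filled points passed an adjusted p of 0.05 (edgeR) and open points did not. The intervals of Fos and Egr2 are the widest among the members, Jun and Junb lie to the left of 0 and Ier3 to the right, as do Fosl1, Fosl2 and the 3 NR4A genes.

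Ier2 encodes a small nuclear protein of the immediate early class that acts as a transcriptional regulator. Its gene (ENSMUSG00000053560) lies on chromosome 8 from 84661331 to 84662852, minus strand. Its CPM were 42.8, 40.9, 40.2 and 39.6 with DMSO and 36.2, 38.6, 36.9 and 38.2 with 4-OI. The groups stood apart, by a gap of about 1 CPM at the closest. By edgeR, the log2 fold change equalled -0.13 ± 0.04 (SE; adjusted p = 0.0146). The call ended without DMSO replicate 1 (edgeR adjusted p = 0.0638) or 4-OI replicate 1 (edgeR adjusted p = 0.0627), and on the TPM scale (limma adjusted p = 0.051), within a range of 0.00901 to 0.0638 over 17 alternatives.

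Ier3 (also known as IEX-1) encodes a short-lived protein that modulates apoptosis and MAP kinase signalling, and unlike most of the set it does not bind DNA as a factor. Its gene (ENSMUSG00000003541) lies on chromosome 17 from 35821684 to 35822923, plus strand. Its CPM were 86.8, 94.7, 95.6 and 90.8 with DMSO and 106.1, 99.6, 107.8 and 104.1 with 4-OI. The groups did not overlap. In edgeR the log2 fold change came to 0.18 ± 0.03 (SE; adjusted p = 0.000161), a rise of 13.6% with a 95% interval from 8.29% to 19.2%. Ier2 and Ier3 thus passed the test in opposite directions. The log2 ratio of Ier2 to Ier3 was -1.16 ± 0.10 with DMSO and -1.47 ± 0.09 with 4-OI (SD, n = 4). The exact permutation test, two-sided, gave p = 0.0286, as small as this design can reach, and 0.143 after adjustment over 5 ratios.

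Myc was among the most abundant members (ENSMUSG00000022346, chromosome 15 from 61985391 to 61990374). Its CPM were 142.2, 142.0, 144.1 and 143.1 with DMSO and 144.7, 154.9, 147.3 and 147.0 with 4-OI. The 4-OI values all exceeded the DMSO values, 4-OI replicate 1 by under 1 CPM. Its log2 fold change in edgeR was 0.06 ± 0.03 (SE; adjusted p = 0.089), and the 95% interval ran from 0.20% to 7.85%. It passed the threshold with scaling by library totals (edgeR adjusted p = 0.0278), with a GC and length correction (edgeR adjusted p = 0.0323) and without 4-OI replicate 1 (edgeR adjusted p = 0.0499), within a range of 0.0278 to 0.316 over 17 alternatives. In TPM the groups overlapped.

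MYC works with MAX and competes with MXD proteins, and in that network of 14 listed genes 12 were tested, with 3 higher and 3 lower (1 higher on the TPM scale). That is 6 of 12 called, beside 38.8% of all genes tested, and a share near the 45.8% of those at a mean of 5 CPM or more. Mga, called higher, kept its call in 9 of 17 alternatives, and Mlxip, called lower, in 7. Mycl, a paralogue of Myc, fell from 15.8 ± 0.461 to 11.2 ± 0.654 CPM (SD, n = 4), a change of -0.50 in log2 (edgeR, adjusted p = 5.01e-07). Mxd3, which encodes a repressing partner of MAX, fell by 0.55 on the log2 scale, and Mlx (0.29) and Mxd4 (0.19) rose. Max was not called (-0.06, edgeR adjusted p = 0.217). Of 25 listed MYC targets, all tested, 12 were lower (6 on the TPM scale) and 1 was higher, and their median log2 fold change was -0.07. Of all genes tested, 19.6% were lower and 19.3% higher. Odc1, which encodes the polyamine enzyme ornithine decarboxylase, was the riser, from 503.0 ± 12.7 to 797 ± 10.5 CPM (SD, n = 4). The largest falls were those of Ldha (-0.41), Rrp12 (-0.22) and Srm (-0.22).

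Klf6 encodes a zinc finger factor of the Krüppel-like family (ENSMUSG00000000078, chromosome 13 from 5861482 to 5870394). Its CPM were 112.9, 115.9, 118.02 and 107.4 with DMSO and 107.6, 111.1, 108.9 and 113.1 with 4-OI. The lowest value of all belonged to DMSO replicate 4, and the groups overlapped. By edgeR, the log2 fold change equalled -0.04 ± 0.03 (SE; adjusted p = 0.299), with a 95% interval from -6.97% to 1.5%.

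Over the 10 members, the CPM of the groups did not overlap in 5, with 4-OI below in Jun, Junb and Ier2 and above in Ier3 and Myc. The same held for 35.4% of all genes tested. In TPM it held for 4 members below, with Egr2 added to the 3 above, and for Ier3 above. The share of all genes was computed in CPM only. Egr2 entered narrowly, with a lowest DMSO value of 0.71 TPM and a highest 4-OI value of 0.7 TPM, at 27 to 61 counts. In CPM its groups overlapped.

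Per length, the order of levels in TPM with DMSO was Ier3 (151 ± 6.49), Myc (110.2 ± 3.50), Junb (104 ± 3.89), Jun (101.4 ± 1.42), Ier2 (45.6 ± 1.91), Klf6 (40.5 ± 1.80), Egr1 (19.02 ± 0.603), Fosb (3.02 ± 0.248), Fos (0.915 ± 0.243) and Egr2 (0.870 ± 0.120), each as SD with n = 4. The ranges of Myc and Junb, of Junb and Jun, and of Fos and Egr2 overlapped, so these neighbours did not differ beyond their spread. The order with 4-OI was the same but for Jun and Junb, whose ranges overlapped again (87.4 ± 0.602 and 87.3 ± 1.65 TPM, SD, n = 4). Myc then stood clear of both. Fos (1.035 ± 0.267 TPM) and Egr2 (0.610 ± 0.0698 TPM; SD, n = 4) did not overlap with 4-OI.

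The TPM of low members moved with the length behind them as well as with their counts. Dividing each count by its TPM gives the transcript length that the authors' estimate used, here as a percentage of the gene's mean over libraries. For Jun, Junb and Ier2 it varied by at most 0.531 percentage points among libraries. For Fosb it was 89.7%, 112.6%, 88.6% and 89.1% with DMSO and 99.7%, 109.9%, 104.0% and 105.3% with 4-OI. For Fos it ran from 67.3% in 4-OI replicate 2 to 112% in DMSO replicate 3, a range of 44.9 points, where the median over all genes tested was 7.89 points and 10.1 points for genes at 0.8 to 2 CPM. In 4-OI replicate 2, Fos had the highest TPM of all libraries (1.39) with 31 counts and 1.10 CPM, a value near the middle of the CPM range. Fos has 4 annotated transcripts, Fosb and Egr2 have 7 each, and Jun and Ier2 have 1 each.

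**Figure D4:**
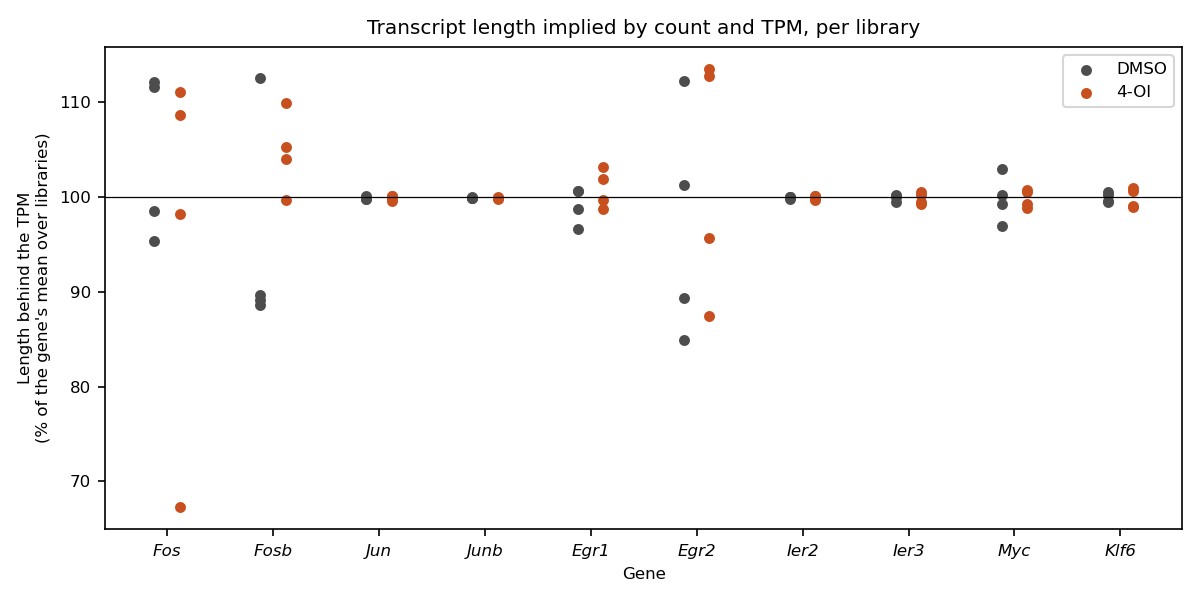
Transcript length implied by the ratio of count to TPM in each library, as a percentage of the gene's mean over 8 libraries, for the 10 members. The points of Jun, Junb and Ier2 lie on 100%, those of Fosb, Egr2 and Fos scatter, and Fos in 4-OI replicate 2 lies at 67.3%.

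After the group mean was taken off log2 CPM, 45 pairs of members had a median correlation over the 8 libraries of -0.05, with 3 pairs above 0.5 and 4 below -0.5. The pairs above were Egr1 with Myc (0.68), Junb with Egr2 (0.63) and Egr1 with Klf6 (0.58). Those below were Fosb with Junb (-0.77), Egr2 with Ier2 (-0.76), Ier2 with Ier3 (-0.71) and Fos with Egr1 (-0.54). These are descriptions over 8 libraries that share their scaling. How often pairs of other genes pass 0.5 was not computed, so the named pairs are not set apart from chance. Members at 5 CPM or more deviated from their group mean by at most 0.08 on the log2 scale in any library.

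The genes most like 3 of the members over the 8 libraries, among 9694 searched, were Anapc13 (r = 0.95), H2az1 (0.94) and Pfkfb3 (0.88) for Fos, Slc7a1 (0.96), Csnk1d (0.95) and Ankrd27 (0.95) for Egr1, and Smad3 (0.98), Myd88 (0.98) and Mta3 (0.97) for Myc. The measure is Pearson's correlation of log2 CPM with group differences left in. With 8 points and so many genes searched, high values arise readily.

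Upstream of the set, SRF binds CArG boxes with ternary complex factors such as ELK1 or with coactivators of the MRTF family. Srf had 87.96, 86.9, 91.2 and 88.8 CPM with DMSO and 78.5, 79.5, 78.7 and 77.1 CPM with 4-OI, and its groups did not overlap. Its log2 fold change was -0.18 (edgeR adjusted p = 3.06e-05). Mrtfa fell by 0.20 (log2; edgeR, adjusted p = 4.77e-05), while Elk1 rose by 0.22 (edgeR adjusted p = 0.000175). Of the 8 genes listed, 7 were tested, with 2 higher, Elk1 and Elk3, and 2 lower; without DMSO replicate 2, 3 or 4 or 4-OI replicate 3, and on the TPM scale, 1 was higher. As reported, 57.1% were called, beside 38.8% of all genes tested and 45.8% of those at a mean of 5 CPM or more.

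Of 31 other rapid response genes listed and tested, 7 were higher and 17 lower, or 77.4% called beside 38.8% of all genes tested, with a median log2 fold change of -0.14. Of genes at a mean of 5 CPM or more, 45.8% were called, and this list too was chosen with earlier results known. On the TPM scale 11 were lower. The number higher ran from 6 with DESeq2 to 10 with library totals. The largest falls were those of Bhlhe40 (-0.69), Hes1 (-0.49) and Ccn2 (-0.42), which encode circadian and Notch-pathway repressors and a matrix-associated signalling protein. The largest rises were those of Plk3 (0.53), Sgk1 (0.46) and Arc (0.46), the last with group means of 1.87 and 2.56 CPM and with edgeR, limma and DESeq2 adjusted p from 0.00817 to 0.104 over 17 alternatives.

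Immediate early transcripts often carry AU-rich elements, and a list of mRNA decay factors held proteins that bind these elements together with subunits and partners of the deadenylase complex. Of its 9 genes, all tested, 6 were lower (2 on the TPM scale) and 1 was higher (2 with library totals and without DMSO replicate 2), where 19.6% of all genes tested were lower and 19.3% higher. The list includes Elavl1, which encodes HuR, a protein that stabilises such transcripts, and which fell by 0.082 in log2 (edgeR, adjusted p = 0.0233, from 0.00638 to 0.321 over 17 alternatives). Cnot1, the scaffold of the deadenylase complex, fell by 0.13. Zfp36l2 rose from 427 ± 13.01 to 533 ± 9.41 CPM (SD, n = 4; log2 fold change 0.32, edgeR adjusted p = 3.95e-09). Zfp36l1 fell by 0.28 and Hnrnpd by 0.33 on the log2 scale. Zfp36, which encodes tristetraprolin, was not called (0.14, edgeR adjusted p = 0.0760). Steady levels of RNA do not separate synthesis from decay.

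The label of a melanoma line was checked against markers. Of 7 melanocyte markers, Mitf was tested, with 146 to 332 counts per library, and Sox10, Mlana, Tyr, Tyrp1, Dct and Pmel had at most 8 counts in any library. Axl, a marker of dedifferentiated melanoma, had 20309 to 28309 counts. Summed CPM of its list of 3 (Axl, Sox9 and Ngfr, the last at 0 to 3 counts) ran from 897.5 to 944.1 with DMSO and from 790.5 to 826.9 with 4-OI, and both Axl (-0.20) and Sox9 (-0.26 in log2) were lower (edgeR adjusted p = 1.79e-06 and 0.000208). Summed CPM of the melanocyte list ran from 6.27 to 7.40 with DMSO and from 9.76 to 10.8 with 4-OI. Summed CPM of T cell, endothelial and keratinocyte markers were at most 0.286 in every library, and those of macrophage markers between 1.48 and 2.46, with Adgre1 at 0. Of the fibroblast markers, Lum was at 0, Pdgfra had 2552 to 3529 counts and Dcn 16 to 64. Their summed CPM, nearly all from Pdgfra, ran from 104.5 to 113.2 with DMSO and from 111.1 to 118.6 with 4-OI. Dcn moved the other way, from 1.77 ± 0.351 to 0.680 ± 0.128 CPM (SD, n = 4; -1.39 in log2, edgeR adjusted p = 2.66e-05), while Pdgfra rose by 0.095 (edgeR adjusted p = 0.0137, from 0.000893 to 0.400 over 17 alternatives). The part of these markers in the results above was not tested. In bulk RNA, fewer cells of a type and less RNA per cell cannot be told apart.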

How the data were processed

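RNA of 8 libraries was analysed, 4 per group, with group and replicate number taken from the titles and columns matched by their descriptions. The labels' protocols give mRNA libraries made with Illumina TruSeq and paired-end reads from a NextSeq. The submitters' processing notes name RSEM 1.3.3, STAR 2.7.8a, cutadapt 2.3, MultiQC 1.7, FastQC 0.11.8 and the build GRCm38, without their roles. The sources used here do not give the annotation release or strand setting. The authors deposited expected counts per gene, whole numbers in every cell, and TPM, a transcript share that takes length into account. The FPKM table was not used.

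The test was edgeR 4.0.16 in R 4.3.3 on the expected counts: filterByExpr (minimum count 10), TMM, quasi-likelihood F test, two-sided, Benjamini-Hochberg adjustment over 13531 genes. CPM are counts scaled by the library total times its TMM factor; those of marker lists leave the factor out. Intervals at 95% come from the fit. Ratios of 2 members used log2 of CPM + 0.5 and an exact permutation test over 70 arrangements. Alternatives were library totals, RLE factors, no filter, a mean of at least 1 CPM, DESeq2 1.42.0, limma 3.58.1 on log2(TPM + 1) and log2(TPM + 0.1), the replicate number as a block, each library left out, and, added after seeing the data, a correction for GC content and length. The procedure was tested on simulated data. A symbol on several rows went to the row with the highest mean. Positions came from GENCODE mouse release M21, promoters from RefSeq. Within a group, the chi-square of counts between libraries over its degrees of freedom was 1.86 to 4.46, so no 2 libraries agreed within sampling noise and none were merged; this does not show that cultures were separate.

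The members and lists were chosen with earlier results of these data known. Named genes are the 10 members, genes of lists with 12 or fewer tested, up to 3 rises and 3 falls of longer lists, and the 3 genes most like Fos, Egr1 and Myc.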

Additional observations from a re-analysis of the deposited data

Results flagged for a closer look

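Of 34 groups of 4 values examined, 1 held a value far from the rest, where chance flags about 1 group in 20. The log2 ratio of Egr1 to Egr2 CPM in 4-OI replicate 2 was 4.85, and its gap to the nearest other 4-OI library was 0.935 of that group's whole range, above Dixon's 95% critical value. In that library Egr1 was at 43.5 CPM, the highest of the 4-OI group, and Egr2 at 29 counts. The distance is small in itself, with a 4-OI mean of 4.76 ± 0.06 (SD, n = 4). It rests on 28 to 33 Egr2 counts per 4-OI library.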

How the results depend on the processing

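Jun, Junb and Ier3 kept their direction and their call in all 17 alternatives, and Fosb, Egr1 and Klf6 their direction with no call. The number of members called lower was 3 as reported, 2 with TPM + 0.1 and 2 to 3 with 1 library left out. With TPM + 1 and without DMSO replicate 1 the number stayed at 3, but Egr2 was called in place of Ier2. The number called higher was 1, and 2 with library totals, with the GC and length correction and without 4-OI replicate 1 (range 1 to 2 with 1 library left out), where Myc passed (log2 fold changes 0.0738, 0.0594 and 0.0726). Ier2 lost its call with TPM + 1 (-0.11) and TPM + 0.1 (-0.12), and ranged from -0.14 to -0.10 with 1 library left out. Egr2 passed with TPM + 1 (-0.21), and ranged from -0.63 to -0.30 with 1 library left out; Myc ranged from 0.0334 to 0.0726. The estimate of Fos changed sign from 0.00: 0.0042 with DESeq2, 0.00068 with the GC and length correction, 0.16 and 0.0870 with TPM + 0.1 and TPM + 1, 0.0166 with library totals, 0.0090 without a filter, 0.0172 with the replicate block, and -0.13 to 0.16 with 1 library left out. The log2 ratio of Fos to Fosb ranged from -0.0046 to 0.20 and that of Fos to Egr1 from -0.0166 to 0.19 with 1 library left out. Over all genes, 2607 were higher and 2646 lower; the TPM tests gave 1750 and 1760 higher and 1615 and 1620 lower, and the cause was not tested. Library totals gave 3021 higher and 2323 lower, or 56.5% of calls higher against 49.6%. Whether replicate numbers pair the samples was not settled: deviations of equal numbers correlated at 0.30, -0.10, 0.15 and -0.07. For 2 numbers the DMSO library correlated best with its own number in 4-OI. With the replicate block 2525 genes were higher and 2618 lower, and no member changed its call. Depth limits Fos and Egr2, with 20 to 61 counts per library.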
